A study of Homo sapiens with 12 samples.

Results

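Integrins are the transmembrane receptors that hold cells to the extracellular matrix, and each receptor is 1 alpha and 1 beta subunit joined at the cell surface. RNA levels of 10 integrin subunit genes were examined in 2 human pancreatic ductal adenocarcinoma cell lines: the alpha subunits ITGA2, ITGA3, ITGA5, ITGA6, ITGA10 and ITGAV, and the beta subunits ITGB1, ITGB4, ITGB5 and ITGB6. They are 10 of the 26 integrin subunit genes in the annotation and of 58721 genes in the tables. The set was picked partly on a measured value, since ITGA10 was among the largest rises in MIA PaCa-2. Values of the subunits in that contrast are therefore given as a description without p-values, also where a subunit is said to pass the limits used below. Pa-Tu-8902 and MIA PaCa-2 cells both carried a doxycycline (dox)-inducible short hairpin against GOT1, the cytosolic aspartate aminotransferase. In each line, 3 libraries came from cells without dox and 3 from cells given doxycycline-hyclate for 5 days before RNA extraction. The labels write the dose as 1 µM/mL, which is no unit of concentration (the study's methods use µg/mL), do not say which GOT1 hairpin was used, and do not state whether replicates were separate cultures, so p-values measure only the spread between these libraries. None of the 12 libraries came from cells with dox and a control hairpin, so effects of dox itself and of GOT1 loss cannot be told apart. Effects of the hairpin on genes other than GOT1 cannot be told apart from these either.

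The beta subunit decides much of what a receptor does. ITGB1 joins many alpha subunits, with ITGA3 and ITGA6 to bind laminins, with ITGA2 and ITGA10 to bind collagens, and with ITGA5 to bind fibronectin. ITGB4 joins only ITGA6 and anchors epithelial cells to the basement membrane at hemidesmosomes. ITGAV joins ITGB1, ITGB5 or ITGB6 and binds ligands that hold the arginine-glycine-aspartate (RGD) motif, such as vitronectin, fibronectin and the latent form of TGF-beta.

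ITGA6 transcripts end in either of 2 cytoplasmic tails, known as alpha6A and alpha6B, and the lines differed in which of these led, so the coding DNA of both is shown. Tail A is read from an alternative exon of 130 bases (chr2:172501772-172501901, GRCh38, plus strand) that ITGA6-201 includes and ITGA6-202 skips. Tail B is read from the last exon (chr2:172504091-172506459). Each sequence runs 5′ to 3′ from the start of its exon to the stop codon, which is in capitals, over chr2:172501772-172501879 for tail A and chr2:172504091-172504252 for tail B.
ITGA6 tail A: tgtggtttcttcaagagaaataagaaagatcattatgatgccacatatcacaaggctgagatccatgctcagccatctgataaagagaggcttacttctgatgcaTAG
ITGA6 tail B: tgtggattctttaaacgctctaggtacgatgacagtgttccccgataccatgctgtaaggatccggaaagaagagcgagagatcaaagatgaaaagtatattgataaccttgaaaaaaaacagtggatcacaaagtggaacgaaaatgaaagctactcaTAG
The coding parts are 108 and 162 bases long, both with a TAG stop.

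Total expected counts ran from 26226537 to 43406137 per library. GOT1, the target of the hairpin, fell from 78.3, 81.5 and 83.4 TPM (abundance scaled for transcript length and library size) to 4.51, 3.29 and 3.68 in Pa-Tu-8902. Its TPM in MIA PaCa-2 fell from 44.1, 38.9 and 42.7 to 1.68, 1.95 and 1.87. The libraries carried markers of their lines: EPCAM, an epithelial adhesion molecule, was at 543 to 699 TPM in the 6 Pa-Tu-8902 libraries and 0.08 to 0.36 in the 6 of MIA PaCa-2, while VIM, the mesenchymal filament vimentin, was at 2.54 to 10.5 and 3531 to 4218. The epithelial CDH1 and mesenchymal ZEB1 split likewise, at means of 65.3 and 0.01 TPM and of 0.73 and 10.5 in untreated Pa-Tu-8902 and MIA PaCa-2. The keratins KRT8, KRT18 and KRT19 were also present in untreated MIA PaCa-2, at means of 1445, 964 and 397 TPM. Mesenchymal CDH2 went against the split, at means of 0.90 TPM in untreated Pa-Tu-8902 and 0.003 in untreated MIA PaCa-2. Summed TPM of 4 leukocyte, 3 endothelial and 3 fibroblast markers stayed at or below 4.06, 1.14 and 0.51 in each library, and PTPRC, the defining leukocyte gene, at or below 0.14. Some markers moved with dox. The 5 epithelial markers summed to 8002 to 8868 TPM in untreated Pa-Tu-8902 and 6597 to 7578 with dox. That lower sum came from the keratins KRT8, KRT18 and KRT19, while EPCAM had means of 548 and 667 TPM and CDH1, E-cadherin, of 65.3 and 130.1. The leukocyte sum, nearly all of it CD14, was 3.42 to 4.06 in untreated MIA PaCa-2 and 1.56 to 1.86 with dox. Their part in the results was not tested. MIA PaCa-2 untreated replicate 2 stood apart from its group, since its counts differed from those of replicates 1 and 3 by a chi-square of 27.3 and 25.5 per degree of freedom, and those 2 from each other by 6.40. It had the lowest TPM of its group for 9 of the 10 subunits, all but ITGA10, and without it the same number of subunits, 6, passed in that line. Among the Pa-Tu-8902 dox libraries, replicates 1 and 2 differed by a chi-square of 20.6 per degree of freedom. Replicate 3 of that group differed from them by 7.21 and 8.09.

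Under dox, 4 of the 9 subunits tested in Pa-Tu-8902 passed an adjusted p below 0.01 and a fold of at least 1.5, and are said below to have risen or fallen. ITGA10, ITGAV and ITGB1 rose and ITGA3 fell. Among all 14949 genes tested in Pa-Tu-8902, 16.3% passed the same limits, 9.22% upward and 7.12% downward. ITGB6 had too few counts to be tested in this line. The median log2 fold change of the 9 was -0.18, beside 0.00 over all genes. With no limit on the fold, 7 of the 9 passed, ITGA2, ITGA6 and ITGB5 being the others, all with lower values under dox. Without that limit, 5692 of the 14949 genes passed too.

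In MIA PaCa-2, the contrast that chose ITGA10, 6 of 9 subunits lay past the same limits, a count that is given as a description because the choice used this contrast. ITGA5, ITGA10, ITGAV and ITGB1 were higher and ITGA3 and ITGB4 lower, and 12% of the 14589 genes tested lay past the limits, 4.36% upward and 7.64% downward. ITGA2 could not be tested there. The median log2 fold change of the 9 was -0.26, and that of all genes -0.01. All 8 subunits tested in both lines had a change of the same sign in both, where 63.8% of the 13137 genes tested in both did. ITGA3, ITGA10, ITGAV and ITGB1 passed in both lines, each in the same direction in both. Of the 13137 genes, 585 passed in both, 495 of them in the same direction. The counts of subunits over both lines are also a description, since ITGA10 was chosen on its rise in MIA PaCa-2. In these bulk libraries, fewer cells that express a subunit and less RNA per cell cannot be told apart.

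**Figure D1:**
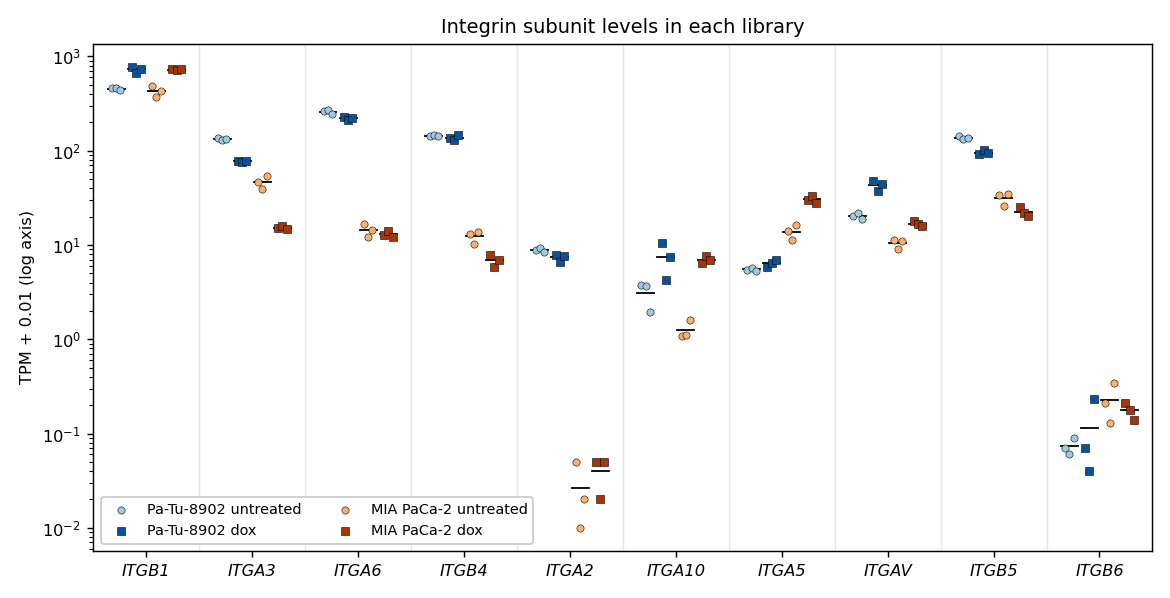
TPM of each integrin subunit, plus 0.01 and on a log axis, in each of the 12 libraries; points are libraries, short lines are group means, circles are untreated and squares are dox. ITGB1 was the highest subunit in each library, and ITGA2 lay at 6.57 to 9.26 TPM in the Pa-Tu-8902 libraries but at 0.04 or below in those of MIA PaCa-2.

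ITGB1, the beta subunit that most of these receptors share, was the most abundant of the 10 in each library. In Pa-Tu-8902 it was at 460.1, 460.2 and 437 TPM untreated and 772, 673 and 737 with dox. The groups did not overlap, and the log2 fold change on counts was 0.60 (SE 0.05, adjusted p = 3.48e-06, edgeR quasi-likelihood test with Benjamini-Hochberg adjustment), a fold of 1.52 that lies just past the limit. In MIA PaCa-2 it was at 488, 371 and 433 TPM untreated and 739, 709.8 and 727 with dox, again without overlap, and the log2 difference was 0.69 (SE 0.07). Between the untreated lines the log2 difference of ITGB1 was 0.04, which did not pass (adjusted p = 0.623, edgeR), with a 95% interval from -0.11 to 0.19. ITGB1 was the 1 member whose expected counts were not whole in all 12 libraries, meaning that reads were split with similar sequences elsewhere, so its absolute level is less certain than that of the others.

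Of the laminin receptor subunits, ITGA3 showed the largest falls. ITGA3 pairs with ITGB1 and binds laminins of the epithelial basement membrane. In Pa-Tu-8902 it was at 137, 131 and 133 TPM untreated and 77.7, 75.8 and 78.1 with dox, and it fell by 0.90 on the log2 scale (SE 0.05, adjusted p = 2.61e-07, edgeR). In MIA PaCa-2 its TPM was 46.7, 39.6 and 54.3 untreated and 15.0, 15.8 and 14.8 with dox. Every dox library lay below every untreated one in both lines, and the MIA PaCa-2 log2 fold change was -1.69 (SE 0.07).

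ITGA6, the laminin-binding partner of both ITGB1 and ITGB4, was at 265, 270.0 and 246 TPM in untreated Pa-Tu-8902 and 229, 212 and 222 with dox. The groups did not overlap, but the log2 fold change of -0.34 (SE 0.05, adjusted p = 0.00012, edgeR) was under the fold limit. In MIA PaCa-2 the TPM was 16.5, 12.2 and 14.3 untreated and 12.8, 14.04 and 12.1 with dox, groups that overlapped, with a log2 fold change of -0.26 (SE 0.08). ITGB4, which links the hemidesmosome to keratin filaments, was at 142, 147 and 142 TPM in untreated Pa-Tu-8902 and 136, 129 and 146 with dox. These ranges overlapped, and its log2 fold change was -0.18 (SE 0.05, adjusted p = 0.0105, edgeR). In MIA PaCa-2, ITGB4 was at 13.1, 10.2 and 13.8 TPM untreated and 7.88, 5.88 and 6.94 with dox, without overlap, and its log2 fold change was -0.81 (SE 0.09).

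**Figure D2:**
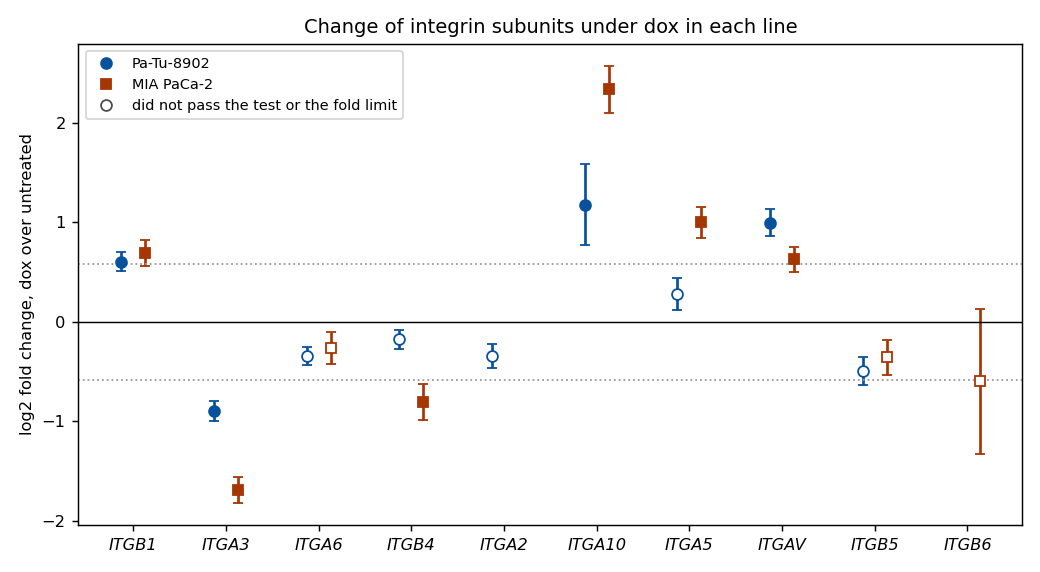
Log2 fold change of each subunit, dox over untreated, on counts in each line; bars are 95% intervals, dotted lines mark a fold of 1.5, and open symbols did not pass. All 8 subunits with a value in both lines lay on the same side of 0 in both. ITGA10 lay highest in both, at 1.18 for Pa-Tu-8902 and 2.34 for MIA PaCa-2, the contrast on which it was chosen.

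The ITGA6 tails differed between the lines. Transcripts with the stop codon of tail A, ITGA6-201 and ITGA6-203, held 69.1, 68.7 and 70.5% of the TPM of both tails in untreated Pa-Tu-8902. In untreated MIA PaCa-2 the share was 44.5, 33.8 and 40%. The difference of 30.0 percentage points went one way in each library, with an exact two-sided permutation p of 0.1, the smallest that 3 against 3 libraries allow. With dox the share was 70.0, 62.2 and 66.8% in Pa-Tu-8902, a range that overlapped the untreated one (exact permutation p = 0.3). It was 42.6, 40.3 and 37.7% in MIA PaCa-2 with dox, each within the untreated range of that line. In TPM, tail A was at 176 ± 6.35 (SD, n = 3) in untreated Pa-Tu-8902 and 5.51 ± 1.49 in untreated MIA PaCa-2, and tail B, carried by 4 transcripts, at 77.5 ± 6.07 and 8.29 ± 0.42. Both tails were thus lower in MIA PaCa-2, tail A by more. These transcript levels are estimates by RSEM from reads that can fit several transcripts, and the choice to add up ITGA6 transcripts by stop codon was made after the values were seen.

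**Figure D3:**
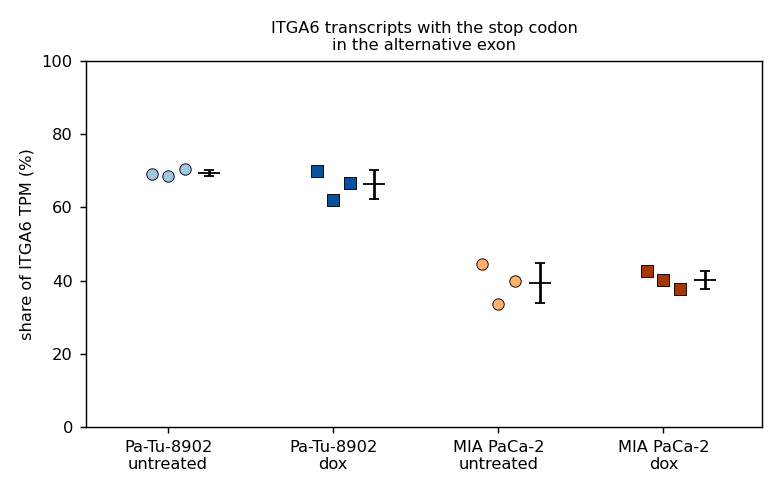
Share (%) of the TPM of ITGA6 transcripts with either stop codon that is held by those ending in the alternative exon (tail A), per library; bars at the side are the mean and SD of 3 libraries. The 6 Pa-Tu-8902 libraries lay between 62.2 and 70.5%, the 6 of MIA PaCa-2 between 33.8 and 44.5%.

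Of the collagen receptor subunits, ITGA10 had the largest rise in each line and ITGA2 was present in 1 line. ITGA10 forms a receptor with ITGB1 that is best known from cartilage, where it binds collagen. The gene lies on chromosome 1 at 145891208 to 145910111 on the minus strand (GRCh38). In MIA PaCa-2 it was at 1.07, 1.11 and 1.58 TPM untreated, from 96, 84 and 109 counts. With dox it was at 6.45, 7.54 and 6.94 TPM, from 408, 457 and 531 counts. The log2 fold change was 2.34 (SE 0.12), which ranked 13 of 14589 genes by size of the rise and is the value that put ITGA10 in this set.

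In Pa-Tu-8902, which played no part in that choice, ITGA10 was at 3.72, 3.63 and 1.92 TPM untreated (228, 283 and 150 counts) and 10.5, 4.21 and 7.45 with dox (693, 505 and 530 counts). The 2 groups did not overlap, although replicate 2 with dox lay close to the upper untreated libraries. ITGA10 rose by a log2 fold change of 1.18 (SE 0.21, adjusted p = 0.000812, edgeR), which ranked 609 of 14949. The call was lost with RSEM effective lengths as offsets (adjusted p = 0.0103) and in limma on log2(TPM + 0.1) or log2(TPM + 1) (adjusted p = 0.0259 and 0.0276), with log2 fold changes of 1.18, 1.20 and 1.00. After dox the lines were near each other, at 7.40 ± 3.17 and 6.98 ± 0.55 TPM (SD, n = 3).

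ITGA10 TPM was spread over 4 transcripts, and coding ones held a mean of 54.4 to 61.0% of it per group. ITGA10-204, a coding transcript of 26 exons, led with 50.0 ± 3.83% of the TPM of the gene in untreated Pa-Tu-8902 and 43.7 ± 5.04% with dox (exact permutation p = 0.2, where 0.1 is the smallest possible). By expected counts the shares were 74.0 and 62.8% (p = 0.1, exact permutation). In MIA PaCa-2 its share of TPM was 40.2 ± 10.4% untreated and 38.6 ± 3.27% with dox. The remaining TPM was in ITGA10-201, also coding, in ITGA10-202, annotated as a retained intron, and in ITGA10-203, a short processed transcript. All 4 forms had higher mean TPM with dox in both lines. In Pa-Tu-8902, ITGA10-204 went from 1.52 to 3.14 and ITGA10-202 from 0.88 to 1.69. In MIA PaCa-2, ITGA10-204 went from 0.49 to 2.68 and ITGA10-202 from 0.30 to 1.89.

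PIAS3, an inhibitor of STAT3 signalling whose gene lies 31372 bp from ITGA10, rose in Pa-Tu-8902 by 0.64 on the log2 scale (adjusted p = 8.37e-06, edgeR). Its log2 fold change in MIA PaCa-2 was 0.05 and did not pass (adjusted p = 0.634). AC243547.1, which overlaps ITGA10 on the opposite strand, had at most 0.44 TPM in any library, and the stated settings do not tell the strands apart. The 5 genes whose profile over the 12 libraries was most like that of ITGA10, by the root mean square difference of standardized log2(CPM + 1) values, were MYLIP (0.23), RNFT1 (0.28), FAM222B (0.28), CTR9 (0.31) and STAT3 (0.31), out of 13743 genes compared. MYLIP, a ubiquitin ligase that lowers the LDL receptor, had group means of 10.9 and 19.6 TPM without and with dox in Pa-Tu-8902. Its means were 8.13 and 17.7 TPM in MIA PaCa-2. The log2 fold changes of the 5 genes ran from 0.24 to 1.40 and were smaller than that of ITGA10 in each line.

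ITGA2, the collagen I receptor subunit of epithelial cells, was at 8.91, 9.26 and 8.33 TPM in untreated Pa-Tu-8902 and 7.84, 6.57 and 7.70 with dox. The groups did not overlap, and the log2 fold change of -0.34 (SE 0.06, adjusted p = 0.000735, edgeR) was under the fold limit. In MIA PaCa-2 it had 4, 0 and 2 counts untreated and 6, 2 and 9 with dox, at 0.04 TPM or below. At these counts no change under dox could be read in MIA PaCa-2.

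Of the RGD receptor subunits, ITGAV was higher with dox in both lines and ITGA5 mainly in MIA PaCa-2. ITGAV, at 20.5, 21.8 and 18.9 TPM in untreated Pa-Tu-8902, was at 48.2, 37.6 and 44 with dox. It rose by a log2 fold change of 1.00 (SE 0.07, adjusted p = 1.15e-06, edgeR), a fold of 1.99. In MIA PaCa-2 its TPM was 11.4, 9.07 and 11.1 untreated and 17.8, 16.7 and 15.95 with dox, and the log2 fold change was 0.63 (SE 0.06). Neither line had overlapping groups. The leading transcript, ITGAV-201, held 99.4 ± 0.60% of ITGAV TPM in untreated Pa-Tu-8902 and 73.8 ± 5.70% in untreated MIA PaCa-2, where the shorter coding ITGAV-202 had a mean of 2.27 TPM against 0 in Pa-Tu-8902.

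ITGA5, the fibronectin receptor subunit, was at 5.43, 5.70 and 5.35 TPM in untreated Pa-Tu-8902 and 5.84, 6.45 and 6.89 with dox. The dox libraries lay just above the untreated ones, and the log2 fold change of 0.28 (SE 0.08, adjusted p = 0.0161, edgeR) did not pass. In MIA PaCa-2, ITGA5 was at 13.9, 11.3 and 16.3 TPM untreated and 30.2, 33.3 and 28.0 with dox, a log2 fold change of 1.00 (SE 0.08) between groups that did not overlap.

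ITGB5, which pairs with ITGAV as a vitronectin receptor, was at 143, 134 and 136 TPM in untreated Pa-Tu-8902 and 91.6, 101 and 93.6 with dox. The groups did not overlap, but the log2 fold change of -0.49 (SE 0.07, adjusted p = 0.000196, edgeR) was under the fold limit. It passed with effective lengths as offsets, at -0.60. In MIA PaCa-2, ITGB5 was at 33.7, 25.8 and 34.8 TPM untreated and 25.6, 21.7 and 20.1 with dox, a log2 fold change of -0.36 (SE 0.09), and each dox library was below each untreated one. So ITGAV and its partner ITGB5 differed in direction in both lines. ITGB6, the epithelial partner of ITGAV that activates latent TGF-beta, was close to absent, at 0.12 to 0.33 TPM in the MIA PaCa-2 libraries and 0.03 to 0.22 in those of Pa-Tu-8902. Its log2 fold change in MIA PaCa-2 was -0.60 with an SE of 0.37, and the groups overlapped.

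The untreated lines differed widely in these subunits. In this comparison 9 of the 10 passed the limits, 7 of them with higher values in Pa-Tu-8902 and 2, ITGA5 and ITGB6, with lower ones. The background was high too: 58.1% of the 15608 genes tested passed, 28.9% being higher and 29.3% lower in Pa-Tu-8902. ITGA2 and ITGB6 had passed the filter on low counts only through the line where each was higher, so for these a difference was bound to appear. ITGA2 had 4831 counts summed over untreated Pa-Tu-8902 and 6 over untreated MIA PaCa-2, a depth-adjusted ratio of 771 with an exact 95% interval from 354 to 2103 that covers counting error only. ITGB6 had 19 and 67 summed counts, a ratio of 0.27 (0.15 to 0.46), and its call (adjusted p = 0.00214, edgeR) was lost in limma on log2(TPM + 0.1) or log2(TPM + 1), at adjusted p = 0.0126 and 0.0532, and without Pa-Tu-8902 untreated replicate 1 or 2, at 0.0102 and 0.0182.

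The epithelial laminin receptor showed the widest gap among the well-counted subunits. ITGA6 was higher in untreated Pa-Tu-8902 by 4.17 on the log2 scale (SE 0.09, adjusted p = 1.31e-13, edgeR), 17.9-fold, and ITGB4 by 3.54 (SE 0.09, adjusted p = 5.53e-13), 11.6-fold. ITGB5 was higher by 2.20 (SE 0.09, adjusted p = 6.73e-11) and ITGA3 by 1.52 (SE 0.07, adjusted p = 3.09e-10). Smaller log2 differences were seen for ITGA10, at 1.21 (SE 0.20, adjusted p = 8.46e-05), and ITGAV, at 0.97 (SE 0.07, adjusted p = 3.96e-08). ITGA5 went the other way, at -1.55 (SE 0.10, adjusted p = 7.31e-09), 2.92-fold higher in MIA PaCa-2. The 3 beta subunits other than ITGB6 thus covered a log2 difference of 0.04 that did not pass (ITGB1) and gaps of 4.61-fold (ITGB5) and 11.6-fold (ITGB4).

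Across the 12 libraries, the closest pair of profiles among the members was ITGA2 with ITGA6. The root mean square difference of standardized log2(CPM + 1) values was 0.08 between ITGA2 and ITGA6, 0.11 between ITGA6 and ITGB4, 0.15 between ITGB4 and ITGB5, 0.16 between ITGA6 and ITGB5 and 0.17 between ITGA2 and ITGB4. These points share the difference between the lines.

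The dox responses of the lines were set against each other in 1 fit of all 12 libraries. The difference of the log2 fold changes, MIA PaCa-2 minus Pa-Tu-8902, lay past the limits for 4 of 10 subunits, 2 upward and 2 downward, and for 10.4% of the 16544 genes tested, 3.86% upward and 6.56% downward. The contrast contains the one that chose ITGA10, so the count and the values are a description and nothing is read from them. ITGA10 differed by 1.16 (SE 0.27) and ITGA5 by 0.72 (SE 0.12), both larger rises in MIA PaCa-2. ITGA3 differed by -0.79 (SE 0.09) and ITGB4 by -0.63 (SE 0.11), both larger falls in MIA PaCa-2. ITGA10 and ITGB4 did not pass with some libraries left out. Of the others, ITGAV was at -0.37 (SE 0.10), and the differences of ITGA6, ITGB1 and ITGB5 were 0.08, 0.09 and 0.14, each with an SE of 0.09 to 0.12. ITGA2 and ITGB6, which had next to no counts in 1 line, are left out of this reading.

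The make-up of the subunit RNA by TPM shifted under dox. Receptors at the cell surface were not measured in these libraries. Among the 6 alpha subunits, ITGA3 held 31.0 ± 1.26% (SD, n = 3) of the summed TPM in untreated Pa-Tu-8902 and 21.3 ± 0.81% with dox. In MIA PaCa-2 it held 53.9 ± 1.79% untreated and 18.4 ± 0.50% with dox. ITGA5 took the lead there, going from 15.9 ± 0.72% to 36.9 ± 1.09%, and the ITGAV share went from 12.1 ± 0.70% to 20.4 ± 1.27%. In Pa-Tu-8902 the ITGAV share went from 4.72 ± 0.19% to 11.9 ± 0.87%, while ITGA6 held 60.3 ± 0.86% and 61.0 ± 0.80%. ITGA10 remained a small part, with 8.46 ± 0.56% with dox in MIA PaCa-2 and 2.01 ± 0.78% with dox in Pa-Tu-8902. Each share depends on the others, since a fall in ITGA3 raises the rest.

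Among the beta subunits, ITGB1 held 61.7 ± 0.50% in untreated Pa-Tu-8902 and 75.7 ± 1.32% with dox. In MIA PaCa-2 it held 90.7 ± 0.77% and 96.1 ± 0.40%. The summed TPM of the 6 alpha subunits was 432 ± 16.2 in untreated Pa-Tu-8902 and 363 ± 18.4 with dox. The MIA PaCa-2 sums were 86.8 ± 12.4 and 82.5 ± 4.87. The summed TPM of the 4 beta subunits was 734 ± 16.2 in untreated Pa-Tu-8902 and 959.6 ± 51.0 with dox. Those of MIA PaCa-2 were 475 ± 64.2 and 755 ± 17.5. The beta sum thus exceeded the alpha sum in each group. These sums and shares count all transcripts of a gene, including short ones of ITGB4 and ITGB5.

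**Figure D4:**
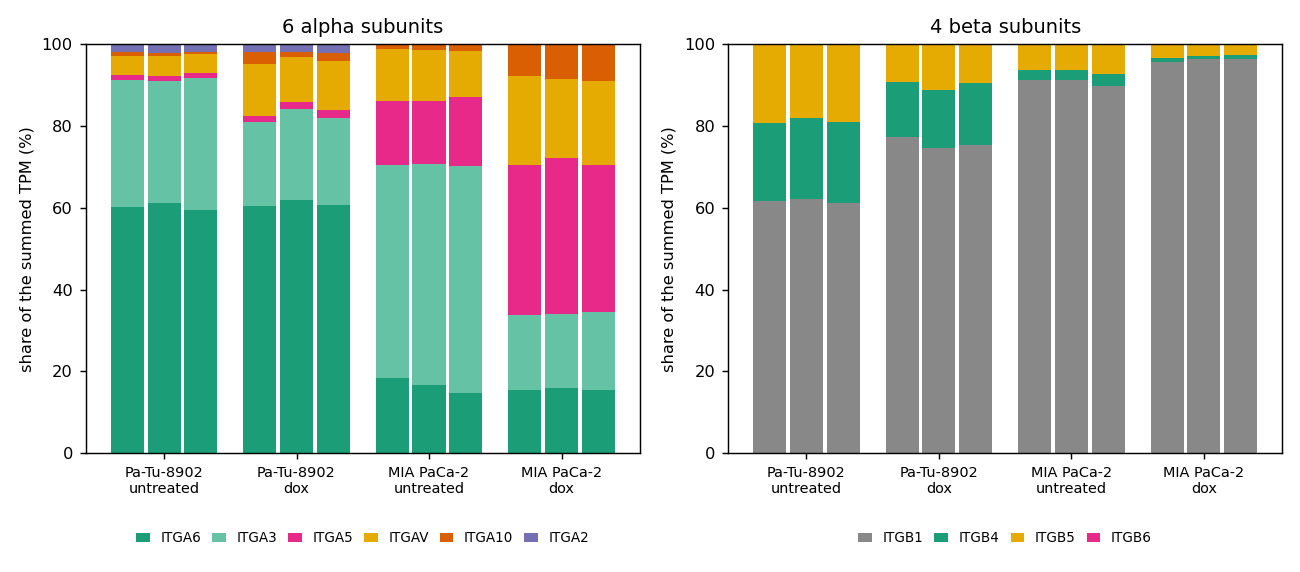
Share (%) of the summed TPM of the 6 alpha subunits (left) and of the 4 beta subunits (right) held by each subunit, 1 bar per library. ITGA3 is smaller in the dox bars of both lines, ITGA5 is the largest alpha subunit in MIA PaCa-2 with dox, and ITGB6 is too low to be seen.

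The order of the subunits by TPM differed between groups. In untreated Pa-Tu-8902 it ran ITGB1, ITGA6, ITGB4, ITGB5, ITGA3, ITGAV, ITGA2, ITGA5, ITGA10 and ITGB6, and the library ranges of ITGB4 and ITGB5 each overlapped with that of the next. With dox, ITGA10 moved ahead of ITGA2 and ITGA5, at 7.40, 7.37 and 6.39 TPM, ranges that overlapped. In untreated MIA PaCa-2 the order was ITGB1, ITGA3, ITGB5, ITGA6, ITGA5, ITGB4, ITGAV, ITGA10, ITGB6 and ITGA2, where ITGA6, ITGA5, ITGB4 and ITGAV overlapped from each to the next. With dox the order began ITGB1, ITGA5, ITGB5, ITGAV and ITGA3, with ITGA5 at 30.5 TPM and ITGA3 at 15.2. ITGA10 and ITGB4, at 6.98 and 6.90 TPM, then overlapped. Short transcripts held part of these levels. In untreated Pa-Tu-8902, ITGB5-203, a processed transcript of 577 bases, was at 42.2 TPM beside 55.5 for the leading ITGB5-201. ITGB4-204 and ITGB4-209, of 688 and 699 bases, were at 25.7 and 24.5 TPM beside 68.4 for the leading ITGB4-203. The leading ITGA3-202 was at 103.9 TPM, so the places of ITGB4 and ITGB5 ahead of ITGA3 depend on such transcripts.

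The members held nearly all integrin subunit reads, with 96.6 to 98.8% of the expected counts of the 26 subunits in each library. Of the other 16, 4 had a mean of at least 1 TPM in some group. ITGAE, the leukocyte subunit that binds E-cadherin, was listed at 46.0 to 90.5 TPM in each library, but 93.2 to 96.6% of that was in ITGAE-207, a processed transcript without a coding model, and at most 0.15% was in coding transcripts. ITGB8, another partner of ITGAV, was at 2.27, 1.64 and 2.26 TPM in untreated MIA PaCa-2 and 0.46, 0.38 and 0.37 with dox, and fell by 2.46 on the log2 scale (SE 0.14, adjusted p = 3.47e-07, edgeR). In Pa-Tu-8902, ITGB8 was at 3.55, 3.24 and 2.59 TPM untreated and 4.72, 3.76 and 4.12 with dox (log2 fold change 0.38, SE 0.10, under the fold limit). ITGB2, the common leukocyte beta subunit, was at 0.45 ± 0.07 TPM untreated and 1.36 ± 0.48 with dox in Pa-Tu-8902 and was the 1 of 7 other subunits that passed there (log2 fold change 0.99, adjusted p = 0.00586, edgeR); the call was lost in DESeq2 and without any 1 of 5 of the 6 libraries. ITGA7, a laminin receptor subunit of muscle, reached a mean of 1.33 TPM in MIA PaCa-2 with dox and passed in neither line.

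Ligands and partners of the integrins were counted over 8 lists of 120 genes in all. In Pa-Tu-8902, 90 were tested, 10 rose and 14 fell, 26.7% of those tested where 16.3% of all genes passed, with a median log2 fold change of -0.03 beside 0.00 over all genes. In MIA PaCa-2, 88 were tested, 8 rose and 10 fell, 20.5% of those tested where 12% of all genes passed, with a median of -0.02 beside -0.01.

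Among the 11 laminin chains, 2 rose and 2 fell of 9 tested in Pa-Tu-8902. LAMB3 and LAMA3, chains of laminin-332, the ligand of the ITGA6-ITGB4 and ITGA3-ITGB1 receptors, fell by 0.71 (SE 0.06, adjusted p = 2.54e-06, edgeR) and 0.61 (SE 0.04, adjusted p = 1.61e-06). LAMB1 rose by 0.75 (SE 0.05, adjusted p = 9.81e-07). In limma on log2(TPM + 1), only 1 laminin chain passed in that line. In MIA PaCa-2, 2 rose and 1 fell of 9 tested. LAMC1, the common gamma chain, rose by 0.85 (SE 0.08, adjusted p = 1.5e-05), and LAMA2 fell by 1.14 (SE 0.10, adjusted p = 8.34e-06).

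Of 6 collagen chains tested in Pa-Tu-8902, 2 rose and none fell. COL1A1, a chain of collagen I, rose by 1.87 (SE 0.09, adjusted p = 6.37e-08, edgeR), and COL6A1 by 1.27 (SE 0.06, adjusted p = 1.09e-07). Of 10 tested in MIA PaCa-2, 2 rose and 1 fell. COL5A2 rose by 1.38 (SE 0.07, adjusted p = 1.6e-07) and COL1A2 by 0.70 (SE 0.07, adjusted p = 1.23e-05), and COL6A3 fell by 1.08 (SE 0.08, adjusted p = 2.03e-06). The medians of the tested chains were 0.80 and 0.42.

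Of the fibronectin and other RGD-type ligands, 3 rose and 2 fell of the 11 tested in Pa-Tu-8902. The MIA PaCa-2 counts were 2 and 1 of 8 tested. In limma on log2(TPM + 1), 3 of these ligands passed in Pa-Tu-8902 and 1 passed in the other line. TGFB1, whose latent form binds ITGAV receptors, fell in Pa-Tu-8902 by 1.35 (SE 0.12, adjusted p = 4.87e-06, edgeR), and CTGF, a matricellular protein, by 1.31 (SE 0.15, adjusted p = 4.2e-05). MFGE8, a bridge from ITGAV receptors to dying cells, rose by 0.92 (SE 0.06, adjusted p = 8.81e-07). In MIA PaCa-2, CYR61, another matricellular ligand of ITGAV receptors, rose by 1.93 (SE 0.06, adjusted p = 6.63e-09), from 2757 ± 97.4 to 10477 ± 385 normalized counts. FBN1, the microfibril protein fibrillin-1, rose by 0.99 (SE 0.13, adjusted p = 0.000152).

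All 4 hemidesmosome partners had lower values with dox in Pa-Tu-8902, and 2 of them fell. COL17A1, the transmembrane collagen of the hemidesmosome, fell by 0.89 (SE 0.09, adjusted p = 1.42e-05, edgeR) and PLEC, the plectin that ties ITGB4 to keratin, by 0.83 (SE 0.08, adjusted p = 1.09e-05); in limma on log2(TPM + 1), 1 of the 4 passed. In the same libraries the keratin markers were lower and EPCAM and CDH1 higher, and their part in this result was not tested. None of the 4 passed in MIA PaCa-2, where their median was -0.33. A difference between the lines in this list was not tested.

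Among 38 adaptors and signalling proteins, 2 rose and 7 fell of the 34 tested in Pa-Tu-8902. The MIA PaCa-2 counts were 1 and 4 of 36 tested, and these 5 became 3 without MIA PaCa-2 untreated replicate 3 and 2 in limma or with effective lengths as offsets. In Pa-Tu-8902, NEDD9, a scaffold downstream of focal adhesion kinase, rose by 2.26 (SE 0.08, adjusted p = 1.52e-08, edgeR). TGFB1I1, the paxillin relative Hic-5, fell by 2.04 (SE 0.13, adjusted p = 6.12e-07), and FLNA, the actin crosslinker that binds beta subunit tails, by 1.5 (SE 0.05, adjusted p = 1.65e-08). In MIA PaCa-2, CAV1, the coat protein of caveolae, rose by 1.35 (SE 0.06, adjusted p = 5.25e-08). ITGB1BP1, which binds the ITGB1 tail, fell by 0.78 (SE 0.08, adjusted p = 2.98e-05), and TLN2, a talin that activates integrins, by 0.73 (SE 0.15, adjusted p = 0.00309).

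Of the genes for integrin trafficking, RAB21, a GTPase that binds alpha subunit tails during endocytosis, fell in both lines, by 1.48 (SE 0.06, adjusted p = 3.73e-08, edgeR) in Pa-Tu-8902 and 1.40 (SE 0.07, adjusted p = 1.07e-07) in MIA PaCa-2. It was the 1 gene of this list that passed, of 11 and 8 tested. Of the 8 lateral partners in the membrane, none passed in Pa-Tu-8902, but 1 did without untreated replicate 1 or dox replicate 1, in limma and with effective lengths as offsets. CD9, a tetraspanin, fell in MIA PaCa-2 by 1.09 (SE 0.06, adjusted p = 3.33e-07), and PLAUR, the urokinase receptor, rose by 0.81 (SE 0.10, adjusted p = 7.07e-05).

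**Figure D5:**
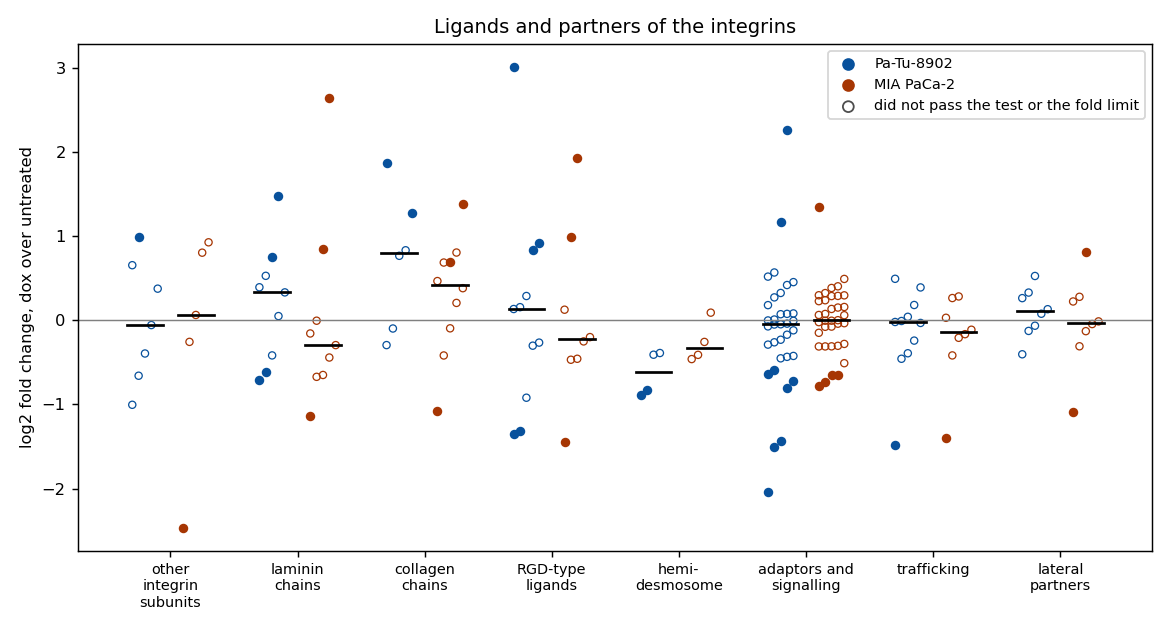
Log2 fold change, dox over untreated, of each tested gene of the 8 lists in Pa-Tu-8902 and MIA PaCa-2; filled points passed the limits, open points did not, and black lines are list medians. The collagen medians lie above 0 in both lines (0.80 and 0.42) and the hemidesmosome medians below it (-0.62 and -0.33).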

How the data were processed

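RNA was sequenced in 12 bulk libraries, 3 in each of 4 groups named by the sample titles. Per the labels and the study's methods, the authors prepared stranded poly(A) libraries, trimmed reads with Trimmomatic 0.39, and aligned and quantified them with STAR 2.5.2a and RSEM 1.3.1 at default settings on GRCh38 with a GENCODE annotation; default RSEM does not use strand. The authors deposited expected counts, neither normalized nor filtered (5.34% were not whole), and TPM, both per gene and per transcript, and effective lengths in bases. FPKM was not used here. Per-library tables repeat these values.

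Expected counts were rounded and tested with edgeR 4.0.16 (R 4.3.3): TMM scaling, a minimum of 10 counts in 3 or more fitted libraries per gene, quasi-likelihood test and Benjamini-Hochberg adjustment over all genes tested; a call needed an adjusted p below 0.01 and a fold of at least 1.5. Lines were fitted separately, with 1 fit of the 6 untreated libraries and 1 of all 12. Fits were tested on simulated data. Alternatives used DESeq2 1.42.0 and limma 3.58.1. TPM served for levels and shares. Gene and exon positions came from GENCODE 44 on the same build, and sequences from the GRCh38 genome. Genes beyond the 10 subunits were named by rule: other subunits with a mean of at least 1 TPM in a group, up to 3 passing genes per list and line with the largest change among those whose mean normalized count reached 100, the 5 genes most like ITGA10 among those with a mean of at least 1 TPM, and its nearest neighbours expressed at that level, of which 1 is not reported here. The members, lists and tests were chosen with earlier results of these data known.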

Additional observations from a re-analysis of the deposited data

Results flagged for a closer look

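For 4 subunits the difference of the dox responses between the lines, in 1 edgeR fit of all 12 libraries, lay past the limits on the adjusted p and the fold. The log2 fold change in MIA PaCa-2 minus that in Pa-Tu-8902 was 1.16 for ITGA10, 0.72 for ITGA5, -0.79 for ITGA3 and -0.63 for ITGB4. The contrast contains the one on which ITGA10 was chosen, so these differences are a description and not independent evidence. ITGA3 fell in Pa-Tu-8902, where ITGA5 and ITGB4, at log2 fold changes of 0.28 and -0.18, did not pass. The difference of ITGA10 no longer passed without Pa-Tu-8902 untreated replicate 1 or 2, MIA PaCa-2 untreated replicate 1 or MIA PaCa-2 dox replicate 2, at 1.03, 1.04, 1.12 and 1.07, nor with effective lengths as offsets or in limma on log2(TPM + 0.1) or log2(TPM + 1), at 1.24, 1.21 and 0.83, and that of ITGB4 did not pass without MIA PaCa-2 dox replicate 3, at -0.58, just under the fold limit.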

How the results depend on the processing

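The counts of subunits that passed stayed within 1.5 times the values given above under each alternative run, except that with no fold limit 7 passed in Pa-Tu-8902. Dropping the fold limit also raised the genes that passed to 3973 in MIA PaCa-2, 5692 in Pa-Tu-8902 and 2799 for the difference of responses, and the list genes to 34 and 49 in MIA PaCa-2 and Pa-Tu-8902, by construction. limma on log2(TPM + 1) passed 1082 genes in MIA PaCa-2; the cause was not tested. Same-numbered libraries did not deviate together (correlations of deviations from -0.06 to 0.10), so the numbers were not taken to pair them; with a replicate block, 4, 6, 9 and 4 subunits and 2380, 1735, 8891 and 1629 genes passed in Pa-Tu-8902, MIA PaCa-2, the untreated lines and the difference of responses, beside 2443, 1751, 9072 and 1724 without it, and ITGB2 no longer passed in Pa-Tu-8902. Leaving out 1 library at a time, the log2 difference of ITGB1 between the untreated lines ran from -0.04 to 0.14, at -0.036 and -0.0021 without MIA PaCa-2 untreated replicate 2 or 3, and that of ITGB6 in the difference of responses from -1.54 to 0.038, the latter without Pa-Tu-8902 dox replicate 3. In the untreated comparison 7 to 8 subunits then passed: ITGA2 missed the count minimum without any 1 of the Pa-Tu-8902 libraries, ITGB6 without any 1 of the MIA PaCa-2 libraries, and ITGB6 did not pass without Pa-Tu-8902 untreated replicate 1 or 2. Of neighbours in the order of levels, 8 pairs overlapped, and 5 to 7 without a replicate number.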
